A study of Homo sapiens with 18 samples.

Results

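The genes described are the Kunitz-type protease inhibitors TFPI2 and TFPI, the tissue factor gene F3, the thrombomodulin gene THBD, the plasminogen activator genes PLAT and PLAU, and the urokinase receptor gene PLAUR. They were taken by name, through their Ensembl identifiers, and are 7 of the 20329 genes counted. They were selected on these functions with earlier counts of the same 18 samples known. Every contrast of their CPM between the 6 groups is therefore treated as used in the choice, and their levels and fold changes are given as a description with no p-value.

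RNA was measured in HAP1, a near-haploid human line derived from the chronic myeloid leukaemia line KBM-7. 18 samples fall into 6 genotype groups of 3. The control group of set A, the ΔWAPL clone 3.3, the ΔSCC4 cells and the ΔWAPL/ΔSCC4 cells formed one set, and a second control group and the ΔWAPL clone 1.14 formed set B. WAPL releases cohesin from DNA and was disrupted with CRISPR and a Blasticidin cassette, whereas SCC4, whose gene is MAU2, loads cohesin and was disrupted with a Puromycin cassette. The ΔWAPL/ΔSCC4 cells were made from ΔWAPL cells by disrupting SCC4 and are labelled as clone 3.3. All cells, controls included, had the same HAP1 background, and no other agent was given. The labels name a clone for both ΔWAPL groups and the ΔWAPL/ΔSCC4 group, and none for ΔSCC4. Each ΔWAPL clone was measured in 1 set only, so a difference between the clones and a difference between the sets cannot be told apart. The samples hold no second labelled clone of ΔSCC4 or of ΔWAPL/ΔSCC4. SCC4 disruption and a difference between the lines therefore cannot be told apart either.

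Tissue factor, the product of F3, is a membrane protein that binds factor VII and starts the extrinsic pathway of blood coagulation. TFPI blocks the tissue factor-factor VIIa complex through its Kunitz domains, and TFPI2 is a related secreted inhibitor that acts on plasmin, trypsin and other serine proteases and is held in the extracellular matrix. Plasminogen is turned into plasmin by tissue-type plasminogen activator (PLAT) and by urokinase (PLAU), and urokinase is held at the cell surface by its receptor PLAUR. Thrombomodulin, the product of THBD, binds thrombin and redirects it to the activation of protein C.

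The samples held 10007646 to 20711127 reads counted on genes, with a median of 16177867. MAU2 was at 0.699 ± 0.243 CPM (counts scaled to the TMM-normalized library size, mean ± SD, n = 3) in ΔSCC4 cells and 0.936 ± 0.0996 CPM in ΔWAPL/ΔSCC4 cells, against 65.6 ± 6.12 CPM in the controls of set A. WAPL RNA was lower but still present, at 43.7 ± 5.73 CPM in clone 3.3, 41.4 ± 2.89 CPM in clone 1.14 and 45.6 ± 4.0 CPM in ΔWAPL/ΔSCC4 cells, against 99.4 ± 21.6 CPM and 120.0 ± 14.5 CPM in the controls of sets A and B. The 6 blood cell markers summed to 0.0596 to 0.551 CPM in every sample, with MPO and SPI1 at 0 throughout. The 4 endothelial markers found summed to at most 0.569 CPM and the 3 monocyte markers to at most 0.325 CPM. The 3 genes of adherent cells summed to 793 to 1002 CPM in 5 groups and to 623 to 664 CPM in ΔWAPL/ΔSCC4 cells, and their part in the results below was not tested. In bulk RNA, fewer cells that express a gene and less RNA per cell cannot be told apart.

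The upstream sequences of TFPI2, F3, PLAUR and PLAU are shown because the last 3 were below every control in clone 1.14 and ΔSCC4 while TFPI2 was not. PLAT and THBD were not matched in the promoter table. Each is the 250 bases before a RefSeq transcription start (table of GRCh38.p14) in the direction of the gene, placed on GRCh37 by a unique exact match. Capitals mark matches, on either strand, to 3 motifs. The SP1 box GGGCGG was in 42.6% of 35116 promoter windows of the same length. The AP-1 site TGANTCA was in 6.6% of them and the TATA box TATAAA in 10.7%.
TFPI2, chr7:93520066-93520315, minus strand: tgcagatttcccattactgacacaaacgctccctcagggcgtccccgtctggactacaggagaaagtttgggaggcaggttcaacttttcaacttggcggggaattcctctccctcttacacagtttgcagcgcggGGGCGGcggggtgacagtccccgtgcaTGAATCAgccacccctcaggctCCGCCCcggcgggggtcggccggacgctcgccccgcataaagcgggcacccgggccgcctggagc
F3, chr1:95007316-95007565, minus strand: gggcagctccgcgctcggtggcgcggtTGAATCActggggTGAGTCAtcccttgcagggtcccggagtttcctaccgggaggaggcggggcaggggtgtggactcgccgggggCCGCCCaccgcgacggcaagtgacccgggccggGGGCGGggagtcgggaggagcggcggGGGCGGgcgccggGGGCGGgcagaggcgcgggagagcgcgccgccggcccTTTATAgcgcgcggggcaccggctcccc
PLAUR, chr19:44174322-44174571, minus strand: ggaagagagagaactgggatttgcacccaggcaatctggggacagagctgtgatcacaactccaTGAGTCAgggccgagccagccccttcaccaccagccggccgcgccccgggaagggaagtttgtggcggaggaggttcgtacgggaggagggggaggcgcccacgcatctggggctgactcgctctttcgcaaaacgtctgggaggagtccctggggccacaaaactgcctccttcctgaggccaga
PLAU, chr10:75670640-75670889, plus strand: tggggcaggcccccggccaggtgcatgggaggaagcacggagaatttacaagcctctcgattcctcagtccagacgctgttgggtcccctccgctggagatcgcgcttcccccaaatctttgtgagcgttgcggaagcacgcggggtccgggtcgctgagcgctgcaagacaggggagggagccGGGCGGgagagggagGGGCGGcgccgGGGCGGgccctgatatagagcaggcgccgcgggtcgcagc
The TFPI2 window held 2 SP1 boxes and 1 AP-1 match, with 64.4% GC and 20 CpG. The F3 window held 4 SP1 boxes, 2 AP-1 matches and 1 TATA box, and its 78.0% GC was above that of 94.3% of all windows. PLAUR had 1 AP-1 match and no SP1 box, and the PLAU window shown had 3 SP1 boxes and no AP-1 match. A second PLAU window (chr10:75670118-75670367) and that of TFPI (chr2:188419163-188419412) held none of these 3 motifs. The E-box letters CACGTG, found in 6.3% of windows, were in none of the 6 windows of these genes, and the letters CCCTC, found in 66.6%, were in 5 of them. Such letter matches describe the sequence only.

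TFPI2 (ENSG00000105825, GRCh37 chr7:93514708-93520065, minus strand) spanned the widest range. In the controls of set A it was at 2.47, 1.98 and 2.39 CPM, from 38, 32 and 40 reads. The 3 samples of ΔWAPL clone 3.3 were at 12.2, 11.2 and 11.3 CPM, from 159 to 245 reads, and the ΔSCC4 samples were at 9.13, 9.39 and 7.99 CPM. In ΔWAPL/ΔSCC4 cells no read was counted in any of the 3 samples. TFPI2 was thus above every control of set A in clone 3.3 and in ΔSCC4, while the cells with both disruptions had no reads. In set B the controls were at 4.09, 3.02 and 4.56 CPM and clone 1.14 at 3.19, 3.28 and 4.24 CPM, and these groups overlapped.

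Ordered by group mean, TFPI2 was at 11.6 ± 0.545 CPM in clone 3.3, 8.84 ± 0.746 in ΔSCC4, 3.89 ± 0.786 in the controls of set B, 3.57 ± 0.583 in clone 1.14, 2.28 ± 0.262 in the controls of set A and 0 in ΔWAPL/ΔSCC4 cells (SD, n = 3). The only neighbours in this order whose ranges overlapped were the controls of set B and clone 1.14. The log2 fold change over control was 2.33 (SE 0.18) in clone 3.3, 1.94 (SE 0.18) in ΔSCC4 and -0.15 (SE 0.19) in clone 1.14. A floor of 3 reads over the 3 ΔWAPL/ΔSCC4 samples corresponds to 0.0583 CPM. Against this floor TFPI2 was at least 39.1-fold lower than in the controls of set A, at least 199-fold lower than in clone 3.3 and at least 152-fold lower than in ΔSCC4. These bounds cover counting error only.

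Of 11638 genes with a mean of at least 1 CPM in each of the other 5 groups, TFPI2 was the 1 gene without a read in all 3 of them. The same count gave 0 genes for each of the other 5 groups. The limit of 1 CPM was set after these values were seen and the gene was chosen with its level known, so this count is a description.

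TFPI (ENSG00000003436, chr2:188328957-188430487), the inhibitor of tissue factor itself, was close to silent. It had 10 reads over the 18 samples, none in 11 of them and at most 2 in any, and the highest group mean was 0.0953 ± 0.0308 CPM in clone 1.14. THBD (ENSG00000178726, chr20:23026270-23030309), the thrombin cofactor, had 1 read in all, in a control of set B. Neither gene passed the filter on low counts, and no fold is given for them. Their level could not be compared between groups at this depth.

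**Figure D1:**
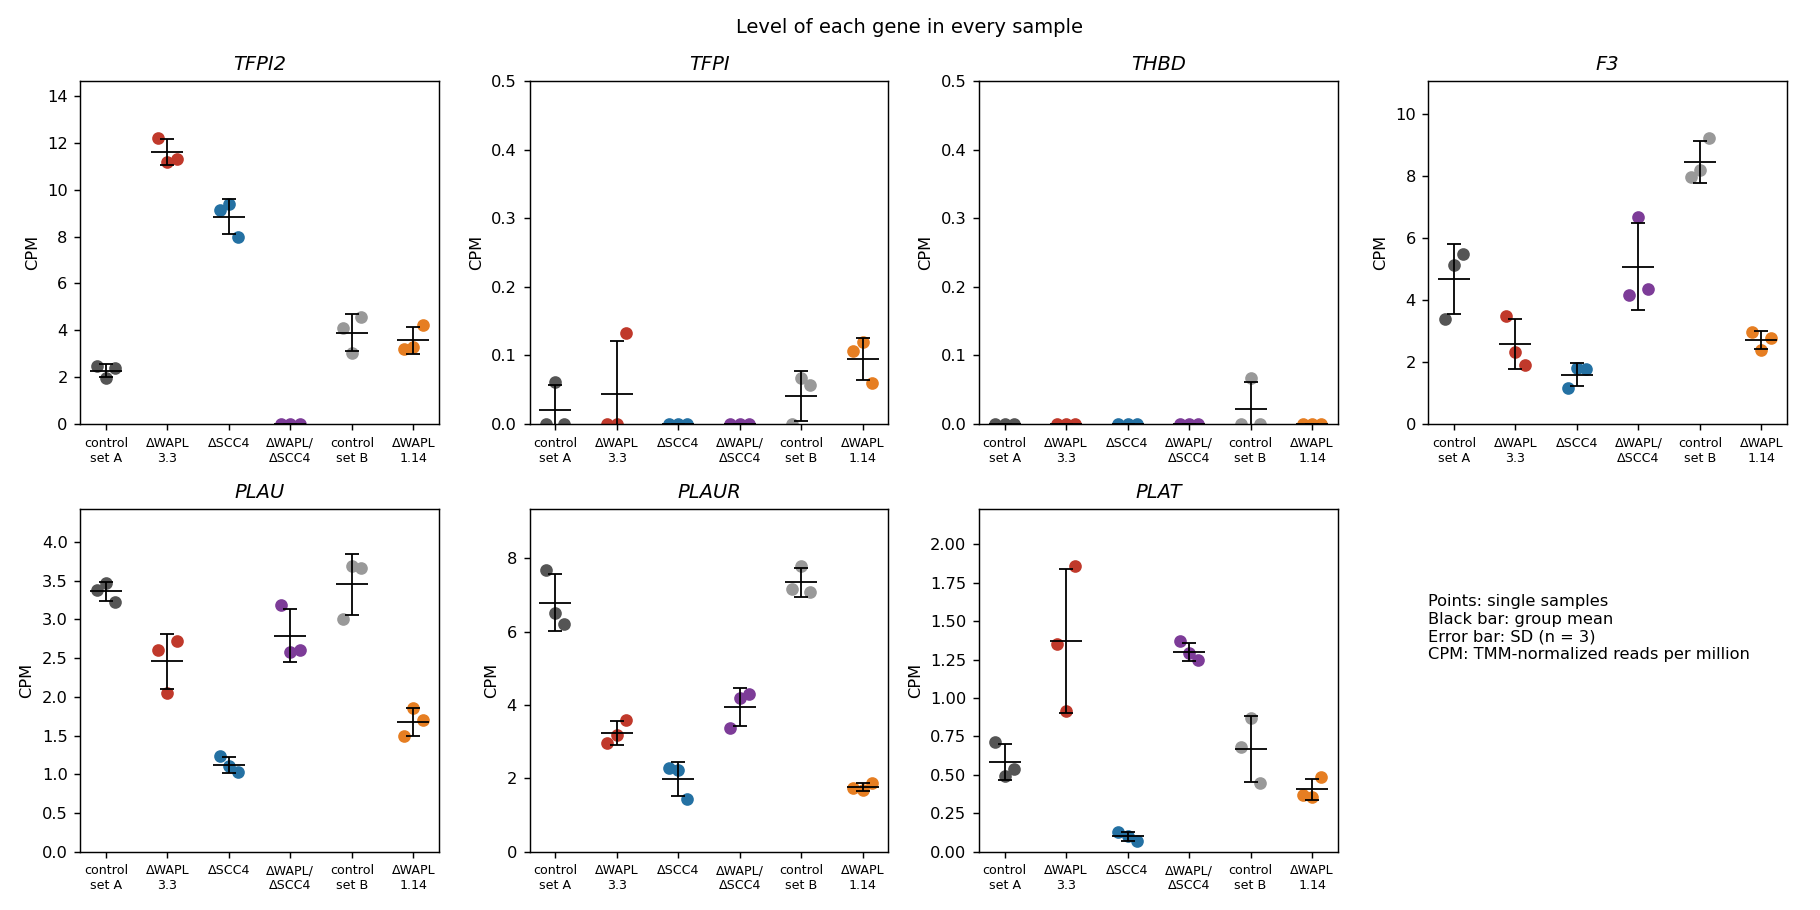
CPM (vertical axis, linear) of each of the 7 genes in each of the 6 groups, with points for samples, a bar for the mean and an error bar for the SD (n = 3). TFPI2 sits at 11.2 to 12.2 CPM in clone 3.3 and at 0 in ΔWAPL/ΔSCC4 cells, and PLAUR at 6.2 to 7.79 CPM in both control groups and at most 4.31 CPM in the other groups.

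F3 (ENSG00000117525, chr1:94994729-95007315), which starts the extrinsic pathway, was at 3.38, 5.14 and 5.49 CPM in the controls of set A and at 7.97, 8.19 and 9.23 CPM in those of set B. Clone 1.14 was at 2.98, 2.38 and 2.78 CPM, below every control of its set. Clone 3.3 was at 3.49, 2.33 and 1.92 CPM, and its highest sample lay above the lowest control of set A. The ΔSCC4 samples were the lowest, at 1.17, 1.82 and 1.79 CPM, and the ΔWAPL/ΔSCC4 samples, at 4.16, 6.7 and 4.37 CPM, overlapped with the controls of set A. F3 means were thus below control in each single disruption and near the control level of its set where both were present.

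On the log2 scale, F3 differed from control by -1.65 (SE 0.12) in clone 1.14, -1.57 (SE 0.26) in ΔSCC4, -0.85 (SE 0.24) in clone 3.3 and 0.11 (SE 0.23) in ΔWAPL/ΔSCC4. It was higher in ΔWAPL/ΔSCC4 than in clone 3.3 by 0.93 (SE 0.24). The control groups themselves differed, with every control of set B above every control of set A and a log2 difference of 0.85 (SE 0.18). The difference of clone 3.3 from control passed the edgeR threshold with all samples, and no longer passed it at -0.78 without control replicate 2, -0.71 without control replicate 3, -0.78 without clone 3.3 replicate 2 and -0.68 without clone 3.3 replicate 3. That of ΔWAPL/ΔSCC4 from clone 3.3 no longer passed at 0.88 without clone 3.3 replicate 2 or 0.7 without ΔWAPL/ΔSCC4 replicate 2.

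PLAUR (ENSG00000011422, chr19:44150247-44174699), the surface receptor that concentrates urokinase, was lower in all 4 disrupted groups than in their controls, with no overlap. The controls were at 7.68, 6.5 and 6.2 CPM in set A and at 7.15, 7.79 and 7.09 CPM in set B. Clone 1.14 was at 1.75, 1.67 and 1.88 CPM and ΔSCC4 at 2.27, 2.22 and 1.45 CPM. Clone 3.3 was at 2.95, 3.18 and 3.58 CPM and ΔWAPL/ΔSCC4 at 3.36, 4.18 and 4.31 CPM. Only the ranges of the 2 control groups, of ΔWAPL/ΔSCC4 with clone 3.3, and of ΔSCC4 with clone 1.14 overlapped between neighbours in the order of the means.

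The log2 fold change of PLAUR over control was -2.06 (SE 0.11) in clone 1.14, -1.79 (SE 0.22) in ΔSCC4, -1.09 (SE 0.19) in clone 3.3 and -0.78 (SE 0.17) in ΔWAPL/ΔSCC4. The last of these did not pass the threshold at -0.82 without control replicate 2 or at -0.68 without ΔWAPL/ΔSCC4 replicate 1.

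PLAU (ENSG00000122861, chr10:75668935-75677254) encodes urokinase, the ligand of that receptor. It was at 3.38, 3.47 and 3.22 CPM in the controls of set A and at 3.0, 3.69 and 3.66 CPM in those of set B. The ΔSCC4 samples were at 1.23, 1.11 and 1.03 CPM and those of clone 1.14 at 1.49, 1.85 and 1.7 CPM, which are log2 fold changes of -1.57 (SE 0.21) and -1.06 (SE 0.15). Clone 3.3, at 2.6, 2.05 and 2.72 CPM, and ΔWAPL/ΔSCC4, at 3.19, 2.58 and 2.61 CPM, also lay below every control of set A. Their fold changes of -0.46 (SE 0.2) and -0.27 (SE 0.17) were smaller.

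PLAT (ENSG00000104368, chr8:42032236-42065227), the tissue-type activator, was the weakest of the 5 genes with reads in most samples. Its values were 0.715, 0.495 and 0.537 CPM in the controls of set A, 1.35, 0.919 and 1.86 CPM in clone 3.3, and 1.37, 1.29 and 1.25 CPM in ΔWAPL/ΔSCC4 cells. In ΔSCC4 cells it was at 0.13, 0.101 and 0.0689 CPM, which is 4 reads against 28 in the controls of set A. In set B the controls were at 0.681, 0.873 and 0.45 CPM and clone 1.14 at 0.372, 0.357 and 0.484 CPM, and these overlapped. Within set A, PLAT was above every control in both groups labelled clone 3.3 and below every control in ΔSCC4.

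PLAT differed from control by a log2 fold change of 1.22 (SE 0.34) in clone 3.3 and 1.15 (SE 0.27) in ΔWAPL/ΔSCC4. Both rest on few reads. The first did not pass the threshold at 1.11 and 1.17 without control replicate 2 or 3, or at 1.26 and 0.96 without clone 3.3 replicate 1 or 3. The second did not pass at 1.05 and 1.1 without control replicate 2 or 3, or at 1.12, 1.15 and 1.18 without ΔWAPL/ΔSCC4 replicate 1, 2 or 3. In ΔSCC4 and clone 1.14 PLAT did not pass the filter. Without the filter its log2 fold change was -2.44 (SE 0.63) in ΔSCC4 and -0.69 (SE 0.36) in clone 1.14.

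**Figure D2:**
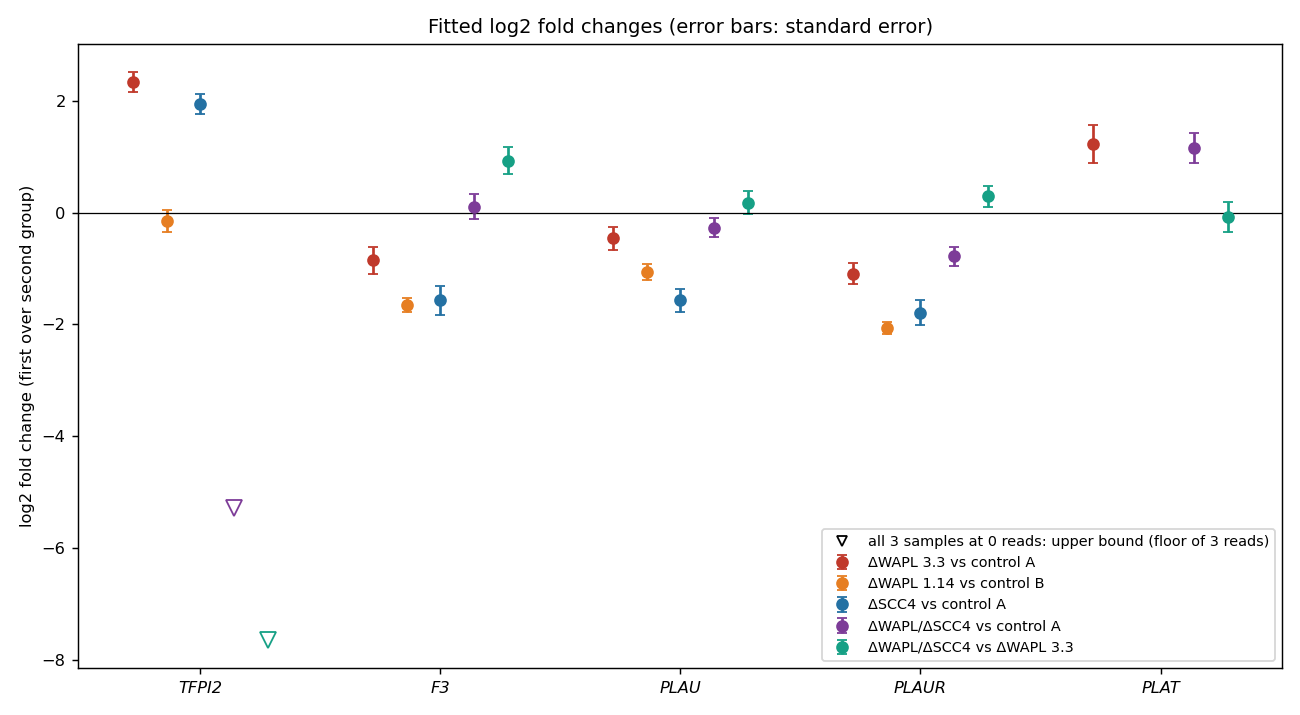
Fitted log2 fold change (vertical axis) with its standard error for the 5 genes with reads in most samples, in 5 comparisons shown by colour. TFPI2 is at 2.33 and 1.94 in clone 3.3 and ΔSCC4 and has only an upper bound, drawn as an open triangle, in ΔWAPL/ΔSCC4, while F3, PLAU and PLAUR lie below 0 in clone 3.3, clone 1.14 and ΔSCC4.

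Set side by side by comparison, clone 3.3 had 2 members called higher (TFPI2 and PLAT) and 2 called lower (F3 and PLAUR) among 5 tested, where 4.17% of all tested genes were called higher and 3.9% lower, 8.07% in all. Clone 1.14 had 0 higher and 3 lower members (F3, PLAU and PLAUR) among 4 tested, where 8.7% of genes were called higher and 11.4% lower, 20.1% in all. ΔSCC4 had 1 higher (TFPI2) and 3 lower (F3, PLAU and PLAUR) among 4, where 5.45% of genes were higher and 4.03% lower, 9.49% in all. Under the replicate block the same 4 members were called in ΔSCC4 and the share of all genes called was 46.0%. ΔWAPL/ΔSCC4 had 1 higher (PLAT) and 2 lower (TFPI2 and PLAUR) among 5, where 4.65% were higher and 3.3% lower, 7.95% in all. Against clone 3.3, ΔWAPL/ΔSCC4 had F3 higher and TFPI2 lower among 5, where 6.05% of genes were higher and 4.55% lower, 10.6% in all. In the main edgeR fit no member was called between the control groups, where 0.56% of genes were higher in set B and 0.0799% lower, 0.64% in all. F3 was called there with DESeq2 (0.85), in one fit over all 18 samples (0.86) and with the replicate block (0.86), and TFPI2 in the fit over all 18 samples (0.78).

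Counted by ranges that did not overlap, 2 members were higher and 2 lower in clone 3.3, as were 11.3% and 12% of tested genes. In clone 1.14, 0 were higher and 3 lower (20.4% and 21.9% of genes). In ΔSCC4 1 was higher and 4 were lower (14.8% and 11.7%), the fourth being PLAT. In ΔWAPL/ΔSCC4 1 was higher and 3 were lower (11.9% and 10.6%), and against clone 3.3 1 was higher and 1 lower (13.3% and 14.4%). In the controls of set B 2 members, TFPI2 and F3, were higher than in those of set A and 0 lower (10.5% and 9.06%).

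The comparisons of clone 3.3, ΔSCC4 and ΔWAPL/ΔSCC4 share the 3 controls of set A, and both comparisons of ΔWAPL/ΔSCC4 share its samples. Because the members were chosen with these contrasts known, nothing is read from these counts. The median log2 fold change of the members with a fitted value was -0.46 in clone 3.3, -1.36 in clone 1.14, -1.57 in ΔSCC4 and -0.08 in ΔWAPL/ΔSCC4 without TFPI2. Over all tested genes it was -0.0006, 0.0015, -0.0047 and 0.0006. The member medians cover 5 genes in clone 3.3 and 4 in each of the others, with PLAT missing in clone 1.14 and ΔSCC4. With TFPI2 placed lowest in ΔWAPL/ΔSCC4, the middle value there is that of PLAU, -0.27.

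The difference between the clones was largest for TFPI2. Its log2 fold change in clone 3.3 exceeded that in clone 1.14 by 2.49 (SE 0.24), and that of PLAUR by 0.99 (SE 0.2). The same differences were 1.94 (SE 0.5) for PLAT, 0.82 (SE 0.31) for F3 and 0.61 (SE 0.23) for PLAU. TFPI2 and PLAUR were past the threshold of this fit, from which nothing is read since the contrast was known when they were chosen, and 1.67% of genes were called with a positive and 0.985% with a negative difference, 2.65% in all. PLAUR was not at 0.98 and 0.95 without clone 1.14 replicate 1 or 2, nor at 0.99 with the replicate block, and PLAT was at 2.13 without clone 3.3 replicate 2 and at 2.19 without set B control replicate 3.

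Levels were also divided by the length of all annotated exons of a gene together. Which transcripts were present is not known here, so the order between genes on this scale is approximate. Per kb of annotated exon, the highest level of a member was that of TFPI2 in clone 3.3, at 4.75 ± 0.223 CPM per kb. TFPI2 in ΔSCC4 followed at 3.62 ± 0.305. In the controls of set A, F3 was at 1.62 ± 0.391, PLAUR at 1.52 ± 0.175, PLAU at 1.14 ± 0.0423, TFPI2 at 0.933 ± 0.107 and PLAT at 0.075 ± 0.0151 CPM per kb. In ΔSCC4 cells F3 was at 0.551 ± 0.128, PLAUR at 0.444 ± 0.103 and PLAU at 0.381 ± 0.0338 CPM per kb. The mean of TFPI2 was below those of F3, PLAUR and PLAU in these controls and above those of all other members in clone 3.3 and ΔSCC4. Across the 18 samples, which share libraries and fall into 6 groups, Pearson's r of log2 CPM was 0.88 for PLAU with PLAUR, 0.796 for F3 with PLAU and 0.773 for F3 with PLAUR, and lay between -0.442 and -0.232 for TFPI2 with each of the other 4.

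TFPI2 lies on chromosome 7 with 12 annotated protein-coding genes of the files within 1 Mb, of which 7 were tested. These neighbours follow from the choice of TFPI2, which was made with its values known. Their adjusted p-values describe these samples and are no independent support. GNG11, which encodes a gamma subunit of heterotrimeric G proteins, starts 31.0 kb from the TFPI2 start on the other strand. It was at 3.19, 3.22 and 2.98 CPM in the controls of set A, at 12.9, 15.6 and 13.7 CPM in clone 3.3 and between 9.23 and 12.2 CPM in ΔSCC4. In ΔWAPL/ΔSCC4 it was at 11.5, 11.9 and 12.9 CPM. Within set A, GNG11 was thus higher in the groups where TFPI2 was high and also in the group where TFPI2 had no reads.

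By edgeR's quasi-likelihood test with Benjamini-Hochberg adjustment over all genes, GNG11 rose by a log2 fold change of 2.15 (SE 0.18, adjusted p = 1.24e-06) in clone 3.3. It rose by 1.78 (SE 0.17, adjusted p = 0.000101) in ΔSCC4 and by 1.95 (SE 0.14, adjusted p = 1.16e-05) in ΔWAPL/ΔSCC4. Between ΔWAPL/ΔSCC4 and clone 3.3 the difference of -0.21 (SE 0.14) did not pass, with an adjusted p of 0.386. In clone 1.14 the value was 0.44 (SE 0.14, adjusted p = 0.0637), from 4.04 ± 0.49 CPM in the controls of set B to 5.54 ± 0.63 CPM, and it passed at 0.54 without set B control replicate 2 (adjusted p = 0.0362). The fold change in clone 3.3 exceeded that in clone 1.14 by 1.72 (SE 0.2, adjusted p = 0.000154).

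**Figure D3:**
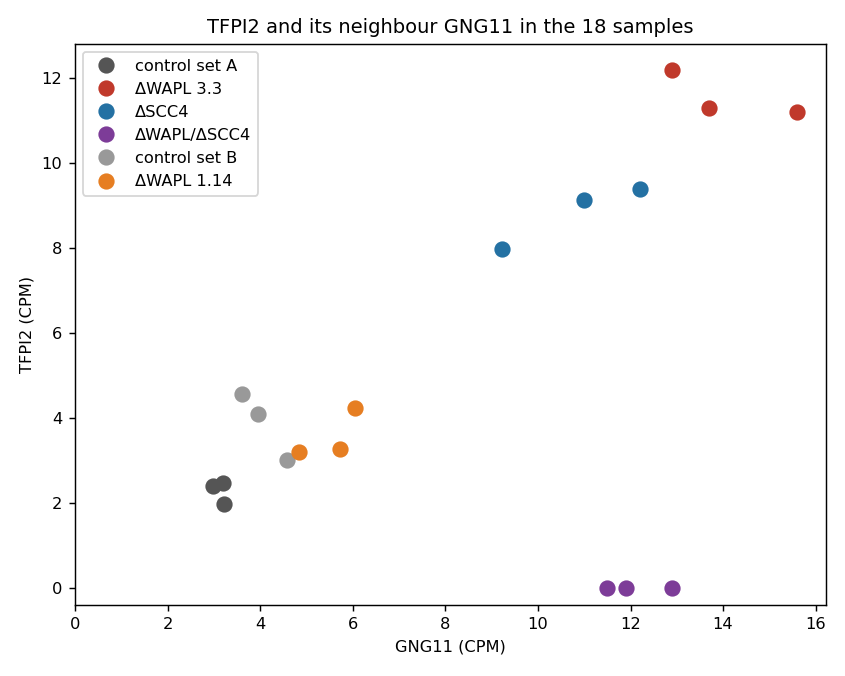
TFPI2 (vertical axis, CPM) against GNG11 (horizontal axis, CPM) in the 18 samples, one point per sample, coloured by group. The ΔWAPL/ΔSCC4 samples lie at 0 CPM of TFPI2 and 11.5 to 12.9 CPM of GNG11, apart from clone 3.3 and ΔSCC4, which were high in both genes.

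Of the other tested neighbours, SAMD9 and PEG10 passed the test in at least 1 comparison. SAMD9, an interferon-inducible gene 772.7 kb from TFPI2, rose in clone 3.3 by 1.77 (SE 0.28, adjusted p = 0.000516) and in clone 1.14 by 2.78 (SE 0.45, adjusted p = 0.00508). It fell in ΔWAPL/ΔSCC4 against clone 3.3 by a log2 change of -1.02 (adjusted p = 0.00736). SAMD9 had few reads in the controls, 44 in set A (0.901 ± 0.373 CPM) and 17 in set B (0.346 ± 0.254 CPM). PEG10, an imprinted retrotransposon-derived gene, was higher in ΔWAPL/ΔSCC4 than in clone 3.3 by 0.5 (SE 0.14, adjusted p = 0.0293), a call that was lost at 0.35 without clone 3.3 replicate 3 (adjusted p = 0.0679) and in one fit over all 18 samples (adjusted p = 0.157). VPS50, BET1, CASD1 and SGCE passed the test in none of these comparisons. The calls were thus 2 of 7 in clone 3.3 (SAMD9 and GNG11) and 1 of 7 in clone 1.14 (SAMD9). They were 1 of 7 each in ΔSCC4 and ΔWAPL/ΔSCC4 (GNG11). In that order, 8.07%, 20.1%, 9.49% and 7.95% of all tested genes were called. Against clone 3.3, ΔWAPL/ΔSCC4 had 1 higher (PEG10) and 1 lower (SAMD9) of 7, where 10.6% of all genes were called. With so few neighbours, nothing is read from these counts. With the replicate number as a block, ΔSCC4 also had CASD1 and SGCE higher, 3 of 7 where 46.0% of all genes were called. TFPI2 lies within the annotated span of GNGT1, a gene on the other strand that had at most 2 reads in any group.

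**Figure D4:**
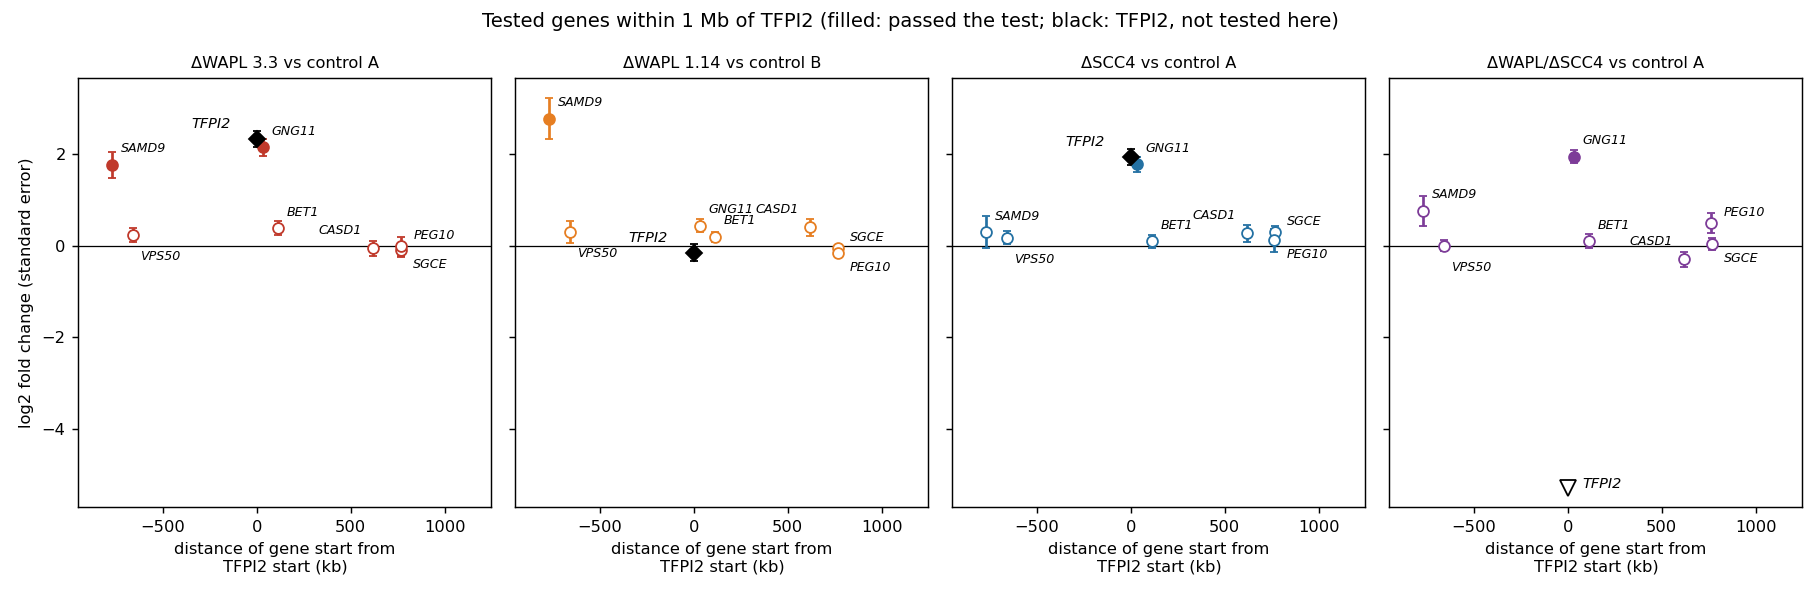
Log2 fold change with standard error (vertical axis) of the 7 tested genes within 1 Mb of TFPI2 against the distance of their start from the TFPI2 start (horizontal axis, kb), in 4 comparisons. Filled points passed the test, black marks TFPI2, and GNG11 lies between 1.78 and 2.15 in all comparisons with the controls of set A, also where TFPI2 had no reads.

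The wider pathway is described by 4 lists that exclude the members: 15 genes with Kunitz domains, 26 coagulation factors and inhibitors, 16 genes of the plasminogen system and 4 protease-activated receptors. The lists too were chosen with earlier results of these data known. The adjusted p-values of their genes therefore describe these samples and are no independent support. Many coagulation genes had few or no reads in these cells. F2, F7 and F10, which encode prothrombin and the factors next to tissue factor in the cascade, had at most 5 reads in any group, and PLG, the plasminogen gene, had none in any sample. The lists were tested for 5 to 6, 6 to 8, 9 to 10 and 2 genes.

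In the plasminogen system, SERPINI1, which encodes neuroserpin, an inhibitor of tissue-type plasminogen activator, rose in all 4 disrupted groups. It was at 1.24 ± 0.111 CPM in the controls of set A and 8.1 ± 1.43 CPM in clone 3.3, a log2 fold change of 2.68 (SE 0.22, adjusted p = 1.15e-06). In set B it went from 1.43 ± 0.423 to 7.29 ± 0.609 CPM, or 2.31 (SE 0.18, adjusted p = 0.000175). It was at 3.11 ± 0.863 CPM in ΔSCC4 (1.28, SE 0.26, adjusted p = 0.00959) and 3.19 ± 0.176 CPM in ΔWAPL/ΔSCC4 (1.35, SE 0.19, adjusted p = 0.0011), and lower in the latter than in clone 3.3 by a log2 fold change of -1.34 (SE 0.17, adjusted p = 5.2e-05). In ΔSCC4 the adjusted p was 0.0598 without control replicate 2. The difference of the fold changes between the clones was 0.38 (SE 0.3, adjusted p = 0.76).

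Beside SERPINI1, A2M, the broad protease inhibitor alpha-2-macroglobulin, rose in clone 3.3 by 1.23 (SE 0.27, adjusted p = 0.00872) and in ΔWAPL/ΔSCC4 by 2.44 (SE 0.21, adjusted p = 3.98e-05). In set B it was at 0.533 ± 0.0779 CPM in the controls and 0.677 ± 0.289 CPM in clone 1.14. The difference of its fold changes between the clones was 0.88 (SE 0.45, adjusted p = 0.532). SERPINE2, which encodes a serpin that inhibits thrombin and the plasminogen activators, rose in ΔWAPL/ΔSCC4 by 1.17 (SE 0.2, adjusted p = 0.00375). In clone 3.3 it rose by 0.8 (adjusted p = 0.0438), a call lost without control replicate 2 (0.68, adjusted p = 0.238) or 3 (0.85, adjusted p = 0.0673) and without clone 3.3 replicate 1 (0.85, adjusted p = 0.0738) or 2 (0.69, adjusted p = 0.224). In clone 1.14 SERPINE2 was not called, at 0.26, and the difference between the clones was 0.56 (SE 0.24, adjusted p = 0.392). VLDLR, a receptor that takes up protease-inhibitor complexes, fell in clone 1.14 from 29.3 ± 0.912 to 17.7 ± 0.0374 CPM (-0.74, SE 0.06, adjusted p = 0.000306). PLGRKT, a plasminogen receptor gene, fell there by a log2 change of -0.42 (adjusted p = 0.01), which was lost without set B control replicate 1 (adjusted p = 0.0604) or clone 1.14 replicate 1 (0.0577) or 2 (0.0579). In all, 3 of 9 tested genes of this list rose and none fell in clone 3.3, 2 rose (SERPINI1 and LRP1) and 4 fell (VLDLR, PLGRKT, S100A10 and the low-count KLK1) of 9 in clone 1.14, 1 of 9 rose in ΔSCC4, and 3 of 10 rose in ΔWAPL/ΔSCC4. Of all tested genes 8.07%, 20.1%, 9.49% and 7.95% were called in these comparisons, and the counts of the lists below stand against the same shares. The list's median log2 fold change was -0.07, -0.22, 0.13 and 0.04 in that order. With the replicate block, 3 of the 9 genes rose (SERPINI1, A2M and LRP1) and 4 fell (ANXA2, ENO1, S100A10 and VLDLR) in ΔSCC4, where 46.0% of all genes were called.

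Among coagulation genes, PROCR, which encodes the endothelial protein C receptor, a partner of thrombomodulin in the protein C pathway, fell in ΔSCC4 from 17.0 ± 2.28 to 4.59 ± 0.63 CPM (-1.88, SE 0.18, adjusted p = 8.67e-05). It also fell in clone 1.14 from 18.9 ± 0.915 to 9.09 ± 1.01 CPM (-1.07, SE 0.1, adjusted p = 0.00039). In ΔWAPL/ΔSCC4 cells PROCR was at 18.2 ± 1.83 CPM. PROS1, the gene of protein S, a cofactor in the same pathway, rose in clone 1.14 by 0.69 (SE 0.08, adjusted p = 0.00145). In clone 3.3 it rose by 0.6 (adjusted p = 0.0407), which was lost without control replicate 1 (0.51, adjusted p = 0.0931) or 2 (0.57, adjusted p = 0.189) and without clone 3.3 replicate 1 (0.62, adjusted p = 0.0781), 2 (0.59, adjusted p = 0.165) or 3 (0.59, adjusted p = 0.085). The list had 1 of 6 tested genes higher in clone 3.3, 1 higher and 3 lower (PROCR and the low-count KNG1 and PROC) of 8 in clone 1.14, 1 lower of 6 in ΔSCC4 and 0 of 6 in ΔWAPL/ΔSCC4. Its median log2 fold change was -0.18, -0.22, 0.27 and 0.02. With the block, ΔSCC4 had 3 higher (F12, F8 and PROS1) and 1 lower (PROCR) of 6, where 46.0% of all genes were called.

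Of the Kunitz-domain genes, SPINT2, an inhibitor of hepatocyte growth factor activator and other membrane proteases, rose in ΔWAPL/ΔSCC4 to 51.5 ± 5.19 CPM. It was at 21.7 ± 2.17 CPM in the controls of set A (1.25, SE 0.13, adjusted p = 0.00016) and 16.3 ± 1.49 CPM in clone 3.3 (1.66, SE 0.13, adjusted p = 2.25e-07). TFPI2 had no reads in the samples where this other Kunitz gene was highest. SPINT1, its relative, was higher in ΔWAPL/ΔSCC4 than in clone 3.3 by 0.55 (adjusted p = 0.0257), a call lost without clone 3.3 replicate 1 (0.39, adjusted p = 0.0701) or 2 (0.62, adjusted p = 0.0503) and without ΔWAPL/ΔSCC4 replicate 1 (0.45, adjusted p = 0.133) or 3 (0.57, adjusted p = 0.0594). PAPLN, the papilin gene, was higher by 0.56 (SE 0.12, adjusted p = 0.0064) in the same comparison. In clone 1.14 SPINT1 fell by a log2 change of -0.62 (SE 0.06, adjusted p = 0.000393) and SPINT2 by -0.47 (adjusted p = 0.0132), the latter lost without set B control replicate 1 (adjusted p = 0.0569) or clone 1.14 replicate 1 (0.0605) or 2 (0.054). The list had 0 of 6 genes called in clone 3.3 and ΔSCC4, 3 of 5 lower in clone 1.14 (SPINT1, SPINT2 and APLP2), where 11.4% of all genes were lower, and 1 of 6 higher in ΔWAPL/ΔSCC4, where 4.65% were higher, with medians of -0.28, -0.11, -0.16 and 0.23. With the block, ΔSCC4 had COL7A1 higher and SPINT1 lower of 6, where 46.0% of all genes were called.

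F2RL1, which encodes protease-activated receptor PAR2, a target of the tissue factor-factor VIIa complex, fell in clone 1.14 from 42.6 ± 1.17 to 26.5 ± 0.68 CPM (-0.7, SE 0.06, adjusted p = 0.000255). In ΔSCC4 it fell from 33.3 ± 7.14 to 18.4 ± 5.43 CPM (-0.86, SE 0.23, adjusted p = 0.0388), and the call was lost without control replicate 2 (-0.85, adjusted p = 0.133) or 3 (-0.71, adjusted p = 0.0649) and without ΔSCC4 replicate 1 (-0.69, adjusted p = 0.105) or 2 (-0.79, adjusted p = 0.142). It was higher in ΔWAPL/ΔSCC4 than in clone 3.3 by 0.6 (adjusted p = 0.0143), and without clone 3.3 replicate 2 by 0.53 (adjusted p = 0.0784). F2R, the thrombin receptor PAR1, was the other receptor tested. Both fell in clone 1.14, where 20.1% of all genes were called, 1 of 2 fell in ΔSCC4 and neither passed in clone 3.3 or ΔWAPL/ΔSCC4, with medians of -0.52, -0.64, -0.54 and -0.02. Both were lower in ΔSCC4 with the block, where 46.0% of all genes were called.

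The 5 genes whose log2 CPM followed that of TFPI2 most closely over the 18 samples, among 12015 genes with a mean of at least 1 CPM, were PLPPR5 (Pearson's r 0.947), EPHA6 (0.945), ZNF804A (0.935), BST1 (0.934) and CNRIP1 (0.889). All were lowest in ΔWAPL/ΔSCC4 cells. The ranking itself favours such genes, since TFPI2 had no reads there, so this is no separate result. From the controls of set A to ΔSCC4, PLPPR5 went from 5.03 to 9.51 CPM, CNRIP1 from 6.21 to 9.91 and ZNF804A from 1.01 to 2.36. EPHA6 went from 2.69 to 4.05 CPM and BST1 from 3.89 to 4.34, where TFPI2 went from 2.28 to 8.84 CPM. EPHA6, an ephrin receptor gene, went from 2.69 ± 0.409 CPM in the controls of set A to 4.44 ± 0.231 in clone 3.3 and 0.153 ± 0.0841 in ΔWAPL/ΔSCC4. ZNF804A, a zinc finger gene, went from 1.01 ± 0.264 to 3.83 ± 0.771 and to 0.0189 ± 0.0328 CPM in the same groups, the last from 1 read. CNRIP1 departed from TFPI2 in clone 3.3, where it was at 4.16 ± 0.0506 CPM, below the 6.21 ± 0.676 CPM of the controls of set A. In set B, TFPI2 went from 3.89 CPM in the controls to 3.57 CPM in clone 1.14. There ZNF804A went from 0.907 to 2.82 CPM, EPHA6 from 3.77 to 4.83 CPM and BST1 from 3.75 to 4.67 CPM. PLPPR5 went from 6.03 to 6.09 CPM and CNRIP1 from 5.46 to 4.86 CPM. The 18 points share libraries and groups, and these values describe likeness only.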

How the data were processed

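The authors prepared stranded polyA-selected RNA libraries, mapped reads to hg19 with TopHat2 (version 2.0.9 per the submitters' processing notes) and deposited unnormalized gene-level HTSeq counts for 18 samples. Their annotation release is not given in the sources used here. Of the reads in the count files, 20.34% to 22.62% fell on no single gene and were left out. Groups came from the sample titles. The set of the disrupted groups came from the run number they share with a control group, which the labels do not state. Nothing says that replicates were separate cultures, so p-values measure the spread between these samples, which may be technical. Floors cover counting error only. The SE of a log2 fold change is its absolute value over the square root of the edgeR F statistic. It thus includes the spread between samples.

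Counts were fitted per comparison with filterByExpr, TMM and edgeR's quasi-likelihood test (version 4.0.16 in R 4.3.3), with Benjamini-Hochberg adjustment over all genes tested, at a threshold of 0.05. A gene called is one past this threshold. The fits were tested on simulated data. CPM values are TMM-normalized, and log2 CPM has a prior count of 2. Symbols, positions and exon lengths came from a GRCh37 annotation that held 96.6% of the gene identifiers. The members and lists were chosen with earlier results of these data known. From the lists, called genes whose average log2 CPM was 0 or more are named, at most 8 a comparison by size of change. F2, F7, F10, PLG, F2R, LRP1, S100A10, KLK1, KNG1, PROC and APLP2, and the genes called only with the block, were named after their values were seen. All tested neighbours within 1 Mb, and the 5 genes most like TFPI2, are named.

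Same-numbered samples of ΔSCC4 and the controls of set A deviated together (r of 0.675, 0.117 and 0.616), so the block is given there beside counts that it moves. In the other comparisons not all pairs had an r over 0.1. For clone 1.14 and the controls of set B the values were 0.0518, 0.323 and 0.196. Alternatives were DESeq2 1.42.0, edgeR with the DESeq2 size factors, removal of the filter, a filter of 10 or more counts per sample, a joint fit of the 18 samples, the block, and omission of each replicate.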

Additional observations from a re-analysis of the deposited data

Results flagged for a closer look

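TFPI2 differed in opposite directions between cells with and without SCC4 disruption in the 2 backgrounds, with no overlap of samples. In cells with intact WAPL the ΔSCC4 mean was higher than that of the controls of set A by 6.56 CPM, and in ΔWAPL clone 3.3 the additional disruption went with a difference of -11.6 CPM. F3 did the reverse, with -3.08 CPM and 2.49 CPM in the same 2 contrasts. These 2 differences between backgrounds were not tested, since both genes were chosen with the results known. SCC4 disruption and a difference between the lines cannot be told apart here.

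GNG11, the neighbour of TFPI2, had a log2 fold change in clone 3.3 that exceeded that in clone 1.14 by 1.72 (SE 0.2, edgeR adjusted p = 0.000154). Every sample of clone 3.3 was above every control of its set. The same held for clone 1.14, at 4.83 to 6.05 CPM against 3.6 to 4.57 CPM in the controls of set B. PROCR had a log2 fold change of -0.29 in clone 3.3 and -1.07 in clone 1.14, a difference of 0.79 (SE 0.18, edgeR adjusted p = 0.0306). The PROCR difference did not pass when any one of 9 of the 12 samples was left out, with adjusted p between 0.0549 and 0.105, or with the replicate block, with an adjusted p of 0.162. Each clone was measured in its own set, so clone and set cannot be told apart.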

How the results depend on the processing

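Of 398 alternative values for 31 log2 fold changes of the members, 396 stayed within 1 SD between replicates and none of the called ones reversed, while 33 changed their side of the threshold, among them 8 of 12 for F3 and 5 of 11 for PLAT in clone 3.3 and 6 of 11 for PLAT in ΔWAPL/ΔSCC4. Of 452 alternative values for 37 tested values of the named genes, 407 kept their side of the threshold and none reversed. For TFPI2, clone 3.3 stayed between 2.23 and 2.4 and ΔSCC4 between 1.84 and 2.02, and neither lost its call. The numbers of genes called moved more, and the cause was not tested. With one fit over all 18 samples the count went from 1008 to 1753 in clone 3.3, from 1186 to 2556 in ΔSCC4 and from 80 to 408 between the control groups. Between the control groups it was also 142 with DESeq2 and 127 with no filter. The difference between the clones went from 339 to 211 with at least 10 counts in every sample. Under the block on replicate number, the count was 5754 in ΔSCC4, 162 between the control groups and 173 for the difference between the clones. Only for ΔSCC4 and its controls did all same-numbered samples deviate together with an r over 0.1, and the labels do not state a pairing. In clone 3.3, where the numbers were not shown to pair the samples, the block lost the calls of F3 (-0.86), SERPINE2 (adjusted p = 0.118) and PROS1 (adjusted p = 0.18). Leaving out single replicates gave 686 to 1180 genes in clone 3.3, 1415 to 4820 in clone 1.14, 662 to 2317 in ΔSCC4, 586 to 1552 in ΔWAPL/ΔSCC4 against control, 861 to 1805 against clone 3.3, 0 to 107 between the control groups and 218 to 372 for the difference between the clones. DESeq2 lost the calls of F3, PLAT, SERPINE2 and PROS1 in clone 3.3 and of PLAT in ΔWAPL/ΔSCC4. PLAT, at 4 to 68 reads a group, and TFPI and THBD, at 5 or fewer, are limited by depth.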
